A study of Mus musculus with 18 samples.

Results

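The genes described here are the anterior members of the Hoxc and Hoxd clusters: Hoxc4, Hoxc5, Hoxc6, Hoxc8, Hoxd1, Hoxd3, Hoxd4 and Hoxd8. They were found by gene symbol among the probe sets that carry 1 symbol, and all 8 were measured, each by 1 probe set, of 19938 genes on the arrays. The samples were F9 cells, a mouse embryonal carcinoma line that turns into primitive endoderm under retinoic acid, grown in medium with 10% foetal calf serum on gelatine-coated plates. The 18 arrays were 2 of cells given the vehicle ethanol for 48 h and 1 for each of 4 retinoids at 2, 6, 24 and 48 h. ATRA (all-trans retinoic acid, which activates every retinoic acid receptor), BMS753 (RARα-specific per the labels) and BMS641 (RARβ-specific) were given at 1 µM, and BMS961 (RARγ-specific) at 0.1 µM, so BMS961 was not matched in dose to the others. The vehicle was measured at 48 h only, so the earlier arrays differ from it in time as well as in retinoid, and BMS641 gives the comparison at the same time.

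Hox genes code for homeodomain transcription factors that give cells along the body axis their position. They lie in clusters, and genes at the 3′ end, with low numbers, are generally switched on earlier and further forward in the embryo than those at the 5′ end. Retinoic acid bound to its receptors activates 3′ Hox genes of the A and B clusters in embryonal carcinoma and embryonic stem cells. Hoxc8 and Hoxc6 are trunk genes known from the spinal cord and ribs, Hoxc4 and Hoxc5 act in the neck and upper trunk, Hoxd3 and Hoxd4 pattern the cervical vertebrae, and Hoxd1 is known in mouse for pain-sensing neurons.

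Promoter sequences are shown because the genes differed in their response and because a retinoic acid receptor recognises the motif AGGTCA. The 5 genes shown are those of the 8 for which the source held a promoter, and it held none for Hoxc5, Hoxc6 and Hoxc8. The sequences are from RefSeq (GRCm38.p6), 250 bases ahead of each gene's start on the plus strand: chr15:103034145-103034394 for Hoxc4, chr2:74704365-74704614 for Hoxd8, chr2:74762730-74762979 for Hoxd1, chr2:74711743-74711992 for Hoxd3 and chr2:74721728-74721977 for Hoxd4. Capitals mark AGGTCA and AGTTCA on either strand, read as TGACCT and TGAACT where they lie on the minus strand.
Hoxc4: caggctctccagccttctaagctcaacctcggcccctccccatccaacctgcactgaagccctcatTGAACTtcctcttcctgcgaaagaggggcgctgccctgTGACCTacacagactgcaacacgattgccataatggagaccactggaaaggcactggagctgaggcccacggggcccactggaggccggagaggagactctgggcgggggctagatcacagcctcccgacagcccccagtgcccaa
Hoxd8: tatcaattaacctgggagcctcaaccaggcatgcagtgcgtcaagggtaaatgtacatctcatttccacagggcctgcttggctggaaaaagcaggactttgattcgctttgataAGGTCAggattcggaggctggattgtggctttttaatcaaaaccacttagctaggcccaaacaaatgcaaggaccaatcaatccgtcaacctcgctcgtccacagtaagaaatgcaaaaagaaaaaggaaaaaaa
Hoxd1: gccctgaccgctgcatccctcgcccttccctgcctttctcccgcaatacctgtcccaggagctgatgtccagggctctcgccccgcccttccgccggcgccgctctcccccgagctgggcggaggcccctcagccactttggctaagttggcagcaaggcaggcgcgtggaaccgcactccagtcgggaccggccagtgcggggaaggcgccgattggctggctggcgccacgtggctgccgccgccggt
Hoxd3: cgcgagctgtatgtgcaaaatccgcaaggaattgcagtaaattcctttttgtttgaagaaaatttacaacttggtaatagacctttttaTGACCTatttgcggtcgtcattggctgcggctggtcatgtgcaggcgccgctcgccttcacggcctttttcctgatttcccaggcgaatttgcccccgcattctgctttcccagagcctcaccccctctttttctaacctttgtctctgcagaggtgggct
Hoxd4: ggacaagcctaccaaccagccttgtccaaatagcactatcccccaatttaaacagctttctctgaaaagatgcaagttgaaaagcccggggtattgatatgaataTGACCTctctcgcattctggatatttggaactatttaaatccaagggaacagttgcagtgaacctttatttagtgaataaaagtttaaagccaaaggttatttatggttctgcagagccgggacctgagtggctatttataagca

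AGGTCA was found in 4 of these 5 promoters, at 146 bases before the start in Hoxc4, 135 in Hoxd8, 161 in Hoxd3 and 145 in Hoxd4, and in 14.0% of 32851 promoters of the same length. It was not found in Hoxd1. AGTTCA lay at 184 bases before the start of Hoxc4 and was found in 11.8% of promoters. Direct repeats were sought with a wider half-site that also takes in GGGTCA and GGTTCA. None spaced by 1, 2 or 5 bases was found in any of the 5, against 0.164%, 0.174% and 0.0883% of all promoters. The Hox and Pbx motif TGATNNAT was in none of the 5 and in 7.68% of all. Among these 5 genes, AGGTCA lay in 2 that were called on the ATRA 48 h array (Hoxc4 and Hoxd8) and 2 that were not (Hoxd3 and Hoxd4). Hoxd1, which was called, lacked it within the bases searched. Hoxc5 and Hoxc8, also called there, and Hoxc6 had no sequence, and whether the motif bears on the response was not tested.

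Levels are given as the deposited log2 values. A difference of 1 is a doubling, and levels of different genes were not compared. All 8 genes had a mean level below the median of all genes, so they were dim on these arrays. In bulk RNA more cells expressing a gene and more RNA per cell cannot be told apart. Of the arrays, vehicle replicate 1 lay nearer the ATRA arrays (median absolute difference over genes 0.13 to 0.24) than vehicle replicate 2 did (0.19 to 0.25), and vehicle replicate 2 lay nearer the 12 BMS arrays (0.11 to 0.22 against 0.18 to 0.22). The 2 vehicle arrays differed by 0.23 in the median gene, and 6 of the 8 Hox genes were higher on replicate 1 by more than 0.05, as were 49.6% of all genes, with Hoxc4 and Hoxc6 within 0.05. The median level over genes was highest of the 18 on the ATRA 48 h array, at 6.07, against 6.0 and 5.82 on vehicle replicates 1 and 2. No batch is named in the labels, and nothing there tells whether the 2 vehicle arrays are of different cultures. The p-values below therefore measure only the spread between arrays, which may be technical or part of the response. That spread comes from the vehicle pair and from differences between retinoids in how levels moved between neighbouring times.

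Hoxc4 stood at 4.53 on both vehicle arrays and at 4.44, 4.71, 4.82 and 6.97 after 2, 6, 24 and 48 h of ATRA. On the 12 BMS arrays it lay between 4.35 and 4.86 with a median of 4.64. The 48 h array of ATRA was thus above all 17 others, of which the highest was BMS961 at 6 h. From 24 to 48 h of ATRA Hoxc4 rose 4.44-fold.

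Hoxc5 gave 4.73 and 4.35 on the vehicle arrays and 4.32, 4.52, 4.66 and 6.99 along the ATRA time course. Its 12 BMS values ran from 4.07 to 4.70 with a median of 4.52. The first 3 ATRA arrays lay within the range of the vehicle and BMS arrays, and the 48 h array was 5.01-fold above the 24 h array. Hoxc4 and Hoxc5 were the only 2 of the 8 that reached at least 2-fold above both vehicle arrays, and did so on the ATRA 48 h array, where 3.26% of all genes did.

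Hoxc8 gave 4.83 and 4.54 on the vehicle arrays and 4.61, 4.99, 4.79 and 5.77 along ATRA. The BMS arrays lay between 4.40 and 4.95 with a median of 4.73. The rise from 24 to 48 h was 1.96-fold, and the 48 h array again stood alone. Hoxc6, which lies between Hoxc5 and Hoxc8 in the cluster, showed no such value: 3.96 and 3.98 with vehicle, then 3.91, 3.89, 3.92 and 3.84 with ATRA. Its highest value, 4.11, was on BMS641 at 48 h, within a range of 3.71 to 4.11 over the BMS arrays. The mean level of Hoxc6 over the arrays was 3.9, and whether its 1 probe set can register a change was not tested.

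In the Hoxd cluster the changes were smaller. Hoxd8 gave 4.36 and 4.05 with vehicle, 4.33, 4.52, 4.51 and 5.10 with ATRA, and 4.10 to 4.44 on the BMS arrays (median 4.22). Hoxd1 gave 5.40 and 5.07 with vehicle, 5.11, 5.14, 5.46 and 5.91 with ATRA, and 4.98 to 5.38 on the BMS arrays (median 5.22). The ATRA 48 h value was the highest of the 18 for both, and for Hoxd1 the ATRA 24 h value was next.

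Hoxd3 and Hoxd4 were each highest on another ATRA array. Hoxd3 gave 4.60 and 4.33 with vehicle and 4.65, 4.60, 4.86 and 4.66 with ATRA, and 4.21 to 4.76 on the BMS arrays, so its highest value was at ATRA 24 h. Hoxd4 gave 4.93 and 4.65 with vehicle and 4.75, 5.11, 4.89 and 4.87 with ATRA, and 4.49 to 5.10 on the BMS arrays, so its highest value, at ATRA 6 h, was 0.01 above the next. In the plot of levels by time, 5 of the 8 genes have their highest array at ATRA 48 h, as did 14.7% of all genes.

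**Figure D1:**
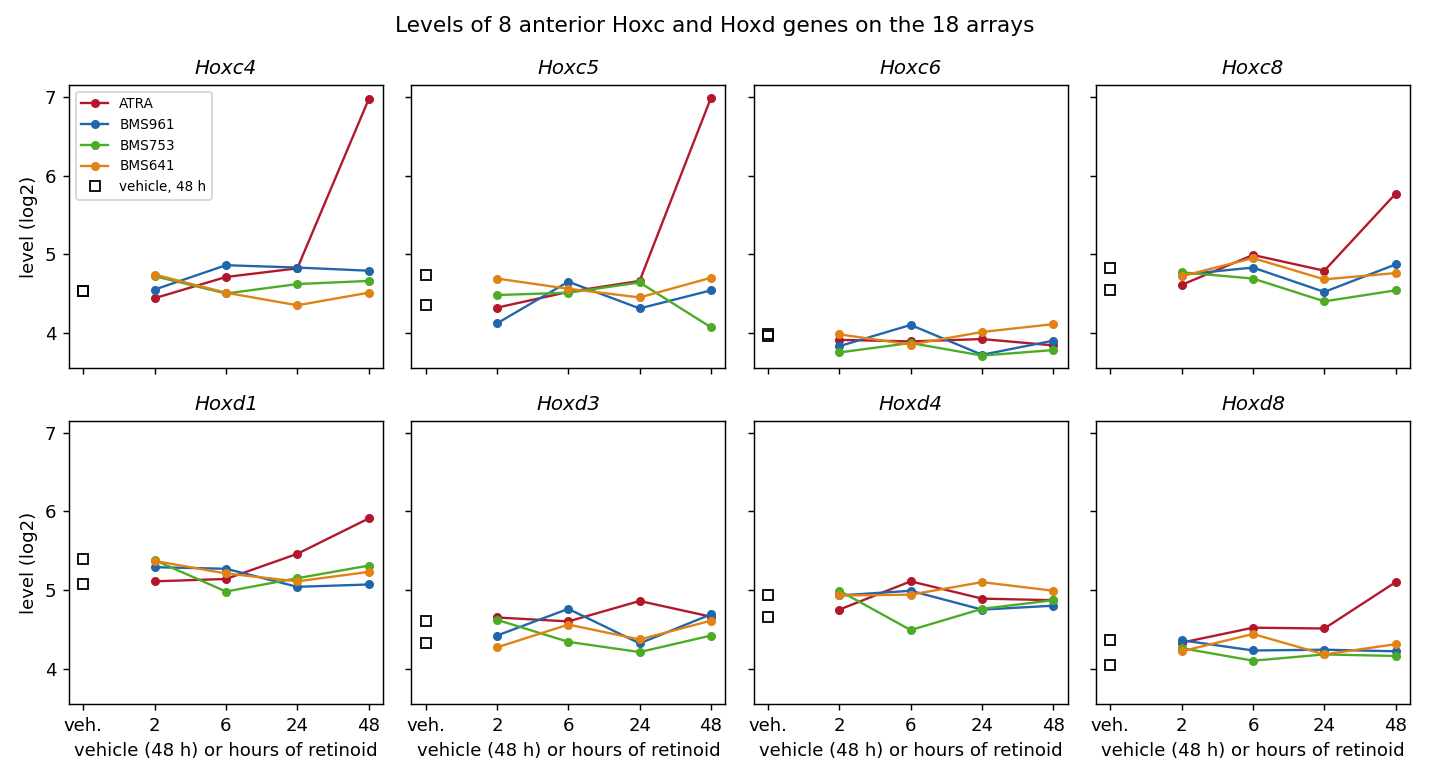
Log2 level of each of the 8 genes on the 18 arrays. Times are evenly spaced, not to scale; each point is 1 array, open squares are the 2 vehicle arrays, and lines join the arrays of 1 retinoid. Hoxc4 and Hoxc5 stand near 7 on the ATRA 48 h array (6.97 and 6.99) and at no more than 4.86 elsewhere.

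With 1 array for each retinoid and time, the change on a single array was tested by giving that array its own term in a limma fit of all 18 arrays, against the mean of the 2 vehicle arrays, with Benjamini-Hochberg adjustment over all 19938 genes. This test was added after the values were seen. On the ATRA 48 h array 5 of the 8 genes were called higher at an adjusted p under 0.05, where 10.9% of all genes were called (1585 of 2180 higher). Hoxc4 changed by 2.44 ± 0.19 (SE; adjusted p = 2.75e-05 from limma) and Hoxc5 by 2.45 ± 0.27 (adjusted p = 0.000284 from limma). Hoxc8 changed by 1.08 ± 0.18 (adjusted p = 0.00276 from limma), Hoxd8 by 0.89 ± 0.18 (adjusted p = 0.0081 from limma) and Hoxd1 by 0.68 ± 0.17 (adjusted p = 0.0295 from limma). Hoxc6 (-0.13 ± 0.15), Hoxd3 (0.20 ± 0.20) and Hoxd4 (0.08 ± 0.22) were not called, with 95% intervals of -0.46 to 0.19, -0.24 to 0.63 and -0.40 to 0.56. The call of Hoxd1 was lost, with an adjusted p of up to 0.0808 in limma, when arrays were centred on their median, when vehicle replicate 1 and the ATRA arrays were given a level of their own, and without any 1 of vehicle replicate 2 and the 24 and 48 h arrays of BMS753 and BMS641. The other 4 calls held under all 23 alternatives run against vehicle, with Hoxd8 at an adjusted p of up to 0.0213 in limma.

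None of the 8 genes was called on any of the other 15 retinoid arrays in limma, and none had an unadjusted p under 0.05 there. The shares of all genes called were 0.572%, 0.396% and 0.878% for ATRA at 2, 6 and 24 h. They were 0%, 0.01%, 0.0953% and 0.637% for BMS961 in order of time, 0%, 0%, 0.00502% and 0.00502% for BMS753, and 0% at all 4 times for BMS641. Over these 120 pairs of gene and array, the change from the vehicle mean ran from -0.47 to 0.39. In every one of these fits but that of ATRA 24 h, the ATRA 48 h array stayed in the error. The SE was then 0.49 to 0.52 for Hoxc4, against 0.19 in the test of ATRA 48 h. For Hoxc5 it was 0.50 to 0.61, against 0.27, and it differed less for the other genes. The non-calls of Hoxc4 and Hoxc5 there thus come from less sensitive tests than that of ATRA 48 h. The shares of genes at least 2-fold above both vehicle arrays were 0.456%, 0.406% and 0.532% for ATRA at 2, 6 and 24 h, and 0.0251%, 0.0802%, 0.466% and 1.01% for BMS961. For BMS753 they were 0.00502%, 0.0201%, 0.0953% and 0.251%, and for BMS641 0%, 0%, 0.00502% and 0.00502%, with none of the 8 Hox genes among them on any of these arrays.

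**Figure D2:**
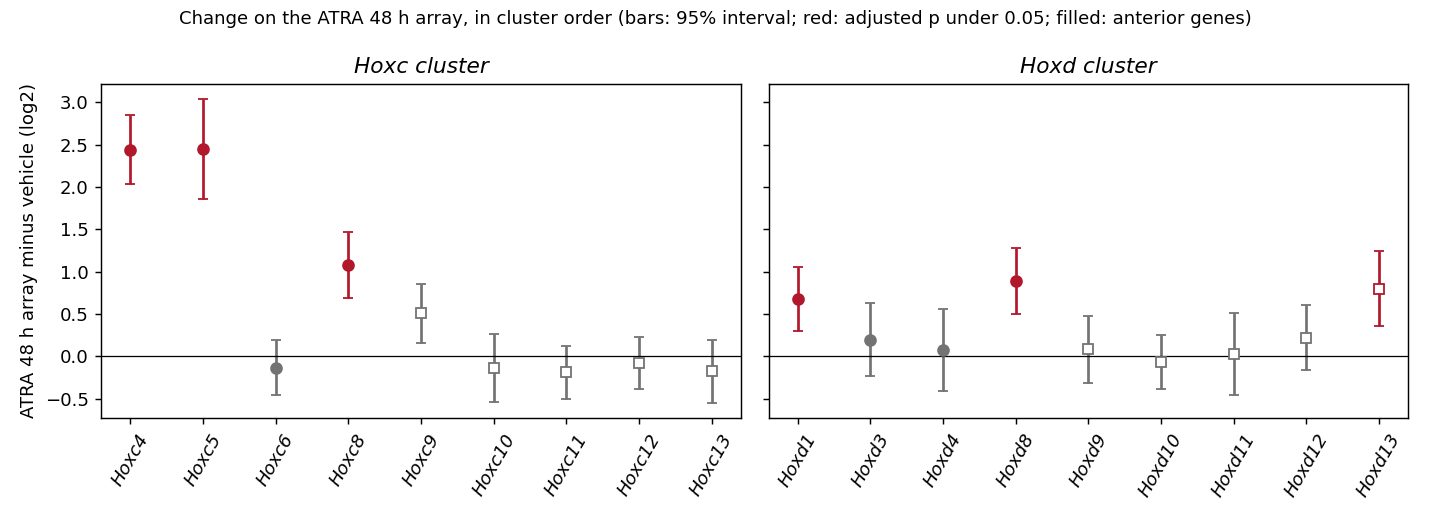
Log2 change on the ATRA 48 h array from the mean of the 2 vehicle arrays for the 18 Hoxc and Hoxd genes, in cluster order from the low-numbered end. Bars are 95% intervals from limma, red marks an adjusted p under 0.05, and filled circles are the 8 anterior genes. Hoxc4, Hoxc5 and Hoxc8 are high, with Hoxc6 at -0.13 between them.

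The 10 posterior genes, Hoxc9 to Hoxc13 and Hoxd9 to Hoxd13, gave 1 call on the ATRA 48 h array, where 10.9% of all genes were called. It was Hoxd13, at the far end of its cluster, with 0.80 ± 0.20 (adjusted p = 0.0275 from limma). Hoxd13, a gene of the limb tip and genitals, stood at 5.24 and 5.09 with vehicle, 5.60, 5.11, 5.64 and 5.97 along ATRA and 4.48 to 5.17 on the BMS arrays. Hoxc9, next to Hoxc8, changed by 0.51 ± 0.16 and was not called (adjusted p = 0.0684 from limma). The median change over the 10 posterior genes was -0.02 on that array.

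Averaged over 24 and 48 h, as the design without replicates at single times requires, the change from vehicle passed the test for none of the 8 genes in limma, while 5 had an unadjusted p under 0.05 and 4.71% of all genes were called for ATRA. The fitted late changes with ATRA were 1.37 ± 0.41 for Hoxc4 (adjusted p = 0.078 from limma), 1.29 ± 0.47 for Hoxc5, 0.60 ± 0.17 for Hoxd8, 0.59 ± 0.20 for Hoxc8 and 0.45 ± 0.15 for Hoxd1. Their median over the 8 genes was 0.52, beside -0.02 over all genes. A rise on the 48 h array alone enters the error of this fit, which the F test and late minus early below share. With the ATRA 48 h array given its own term, the SE was lower for Hoxc4 (0.19 against 0.41), Hoxc5 (0.27 against 0.47) and Hoxc8 (0.18 against 0.20). It was higher for the other genes. Without the ATRA 24 h array, which leaves the 48 h array alone, some of the 8 were called, as they were without vehicle replicate 1. The share of all genes called was not computed for these fits, so these calls are not read as a result about the 8 genes. In simulated data a change on the 48 h array alone was recovered by this average for 0% of genes with a 4-fold change, and by the test of the 48 h array for 89.6%. Only 67 genes were changed at this size there, with 67 at 2-fold and 66 at 8-fold, while 940 genes were called late with ATRA in the measured data. The adjustment is stricter where fewer genes change, so these rates do not carry over and do not tell why none of the 8 passed. None of the 8 was called late in BMS961 (1.26% of all genes), BMS753 (0.186%) or BMS641 (0%). None was called early, over 2 and 6 h, in ATRA (1.25% of all genes), BMS961 (0.0401%), BMS753 (0%) or BMS641 (0%), and none had an unadjusted p under 0.05 in these 7 comparisons.

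Over all 8 differences from vehicle together, none of the 8 genes passed limma's moderated F test, with an adjusted p from 0.226 for Hoxd1 to 0.859 for Hoxd4, and none had an unadjusted p under 0.05; 6.83% of all genes passed it. Without the ATRA 24 h array some of the 8 passed, but the share of all genes that passed was not computed for that fit.

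Set against BMS641 at the same time, the ATRA 48 h array was higher by 2.47 for Hoxc4 and 2.29 for Hoxc5, the pattern of the 48 h column in the plot of differences from BMS641. It was higher by 1.01 for Hoxc8, 0.79 for Hoxd8 and 0.68 for Hoxd1, and the differences of the 3 other genes were -0.27 (Hoxc6), 0.05 (Hoxd3) and -0.12 (Hoxd4). Over the 88 remaining pairs of gene and array the difference from BMS641 ran from -0.64 to 0.49.

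**Figure D3:**
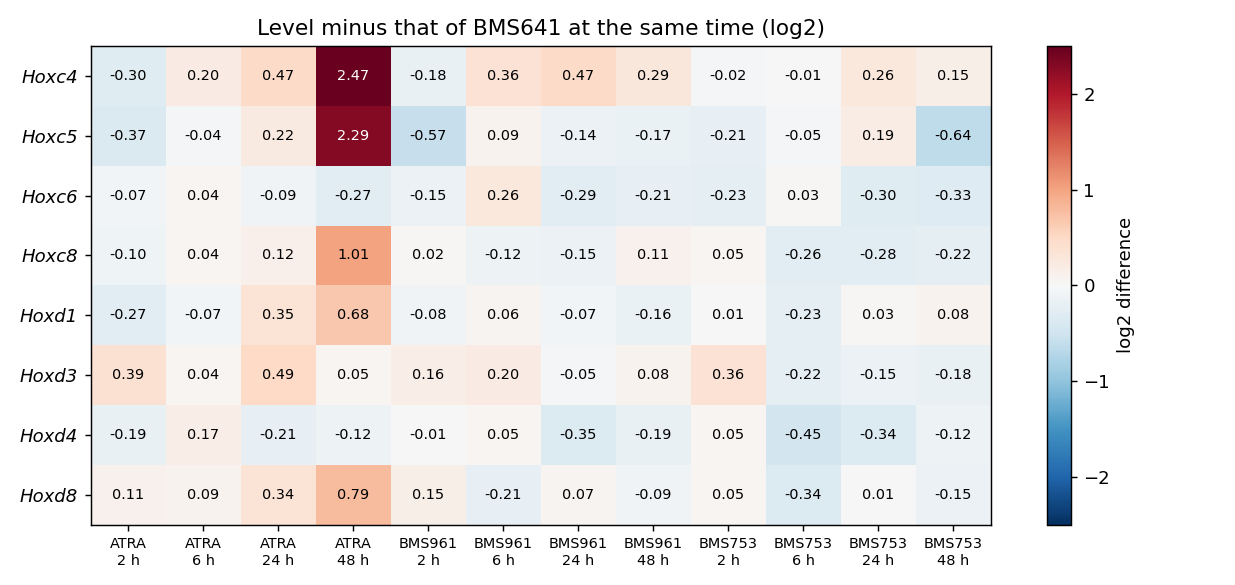
Log2 level of each gene on the ATRA, BMS961 and BMS753 arrays minus its level on the BMS641 array of the same time. Cells give the difference and the colour scale its size; the ATRA 48 h column holds the 5 largest values, from 0.68 to 2.47. BMS961 was given at 0.1 µM and the other retinoids at 1 µM.

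At 48 h ATRA was tested against each BMS compound, giving both arrays a term of their own, for 3 pairs of compounds. Against BMS641 at the same dose 3 of the 8 genes were called in limma, where 7.86% of all genes were: Hoxc4 (2.47 ± 0.23, adjusted p = 0.000423), Hoxc5 (2.29 ± 0.31, adjusted p = 0.00259) and Hoxc8 (1.01 ± 0.21, adjusted p = 0.0202). Hoxd8 (adjusted p = 0.0538 in limma) and Hoxd1 (adjusted p = 0.0909 in limma) were not called, with 95% intervals of the difference of 0.31 to 1.27 and 0.20 to 1.16. Against BMS753 at the same dose 4 were called, Hoxc4 (2.31 ± 0.23), Hoxc5 (2.92 ± 0.25), Hoxc8 (1.23 ± 0.22) and Hoxd8 (0.94 ± 0.22), where 4.21% of all genes were. Against BMS961, given at a dose lower by a factor of 10, 2 were called, Hoxc4 (2.18 ± 0.23) and Hoxc5 (2.45 ± 0.31), where 1.6% of all genes were. Hoxc4 and Hoxc5 were the 2 genes called in all 3 pairs.

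Over the late arrays together, ATRA against BMS641 called 3 of the 8 genes in limma, where 14.8% of all genes were called: Hoxc4 (1.47 ± 0.41, adjusted p = 0.0323), Hoxd1 (0.51 ± 0.15, adjusted p = 0.0427) and Hoxd8 (0.56 ± 0.17, adjusted p = 0.0494). This count was not stable: it was 0 without the ATRA 48 h array or either late BMS641 array, 5 without the ATRA 24 h array, and 1 without any 1 of ATRA 2 or 6 h, the 4 BMS961 arrays, BMS753 24 or 48 h and BMS641 2 or 6 h. It was also 0 with vehicle replicate 1 and the ATRA arrays given a level of their own, and 1 with arrays centred on their median. The share of all genes called was not computed under these alternatives. None of the 8 was called for BMS961 late (1.19% of all genes) or BMS753 late (0%), where 1 had an unadjusted p under 0.05 with BMS753. None was called early for ATRA (1.6%), BMS961 (0.00502%) or BMS753 (0%).

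Within ATRA, late minus early called 1 of the 8 genes, Hoxd1 (0.57 ± 0.15, adjusted p = 0.0454 in limma), where 7.27% of all genes were called. That call was lost without any 1 of the ATRA arrays at 2, 6 or 48 h. The same held without any 1 of the BMS961 and BMS641 arrays or the late BMS753 arrays. It was also lost with arrays centred on their median, with a trended robust prior and without the common steps. Without ATRA 24 h more of the 8 were called, but the share of all genes called was not computed there. No member was called within BMS961 (0.767%), BMS753 (0.00502%) or BMS641 (0%). The difference between ATRA and a BMS compound in this change was called for none of the 8 in limma: 0.166% of all genes were called against BMS961, 0.366% against BMS753 and 0.301% against BMS641, and 1, 4 and 2 of the 8 had an unadjusted p under 0.05. Without ATRA 24 h some of these differences were called, but the share of all genes called was not computed there.

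Of the genes of the A and B clusters with the same numbers, several are known direct targets of retinoic acid, and 9 were measured. In limma 3 of these 9 were called higher on each of the ATRA 2 and 6 h arrays (Hoxa5, Hoxb4 and Hoxb5), 6 on the 24 h array and 8 on the 48 h array. Hoxa5 changed by 2.29, 3.16, 4.19 and 4.93 from the vehicle mean at 2, 6, 24 and 48 h, and Hoxb4 by 1.37, 1.76, 2.06 and 2.60. The share of the 48 h change present at 24 h was 85% for Hoxa5 against either vehicle array, and 78% and 80% for Hoxb4 against vehicle replicates 1 and 2. Against the vehicle mean it was 89.1% to 105% for Hoxa3, Hoxb3, Hoxb5, Hoxa6 and Hoxb6. For Hoxb1, the paralog of Hoxd1, that share was lower, at 54.8%. It was 12% for Hoxc4 against either vehicle array, and for Hoxc5 -3% and 12% against replicates 1 and 2. For Hoxc8 (-4% and 21%), Hoxd1 (13% and 47%) and Hoxd8 (20% and 44%) it depended on the vehicle array. Hoxa4 differed from both, at 0.61, 0.72, 1.74 and 0.35, so it was highest at 24 h. On BMS961 at 48 h Hoxa5 stood at 8.49 and Hoxb4 at 6.18, above their vehicle values of 5.57 and 5.52 and of 5.04 and 4.81, while Hoxc4 stood at 4.79 and Hoxc5 at 4.54. With groups 2 and 7 included, to which none of the 8 genes belongs, 13 A and B genes were measured. Only 2 of them, Hoxa5 and Hoxb4, were at least 2-fold above both vehicle arrays there, as were 1.01% of all genes. Hoxb1 stood at 5.90 (vehicle 5.76 and 5.15) and Hoxb3 at 6.19 (6.17 and 5.60).

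**Figure D4:**
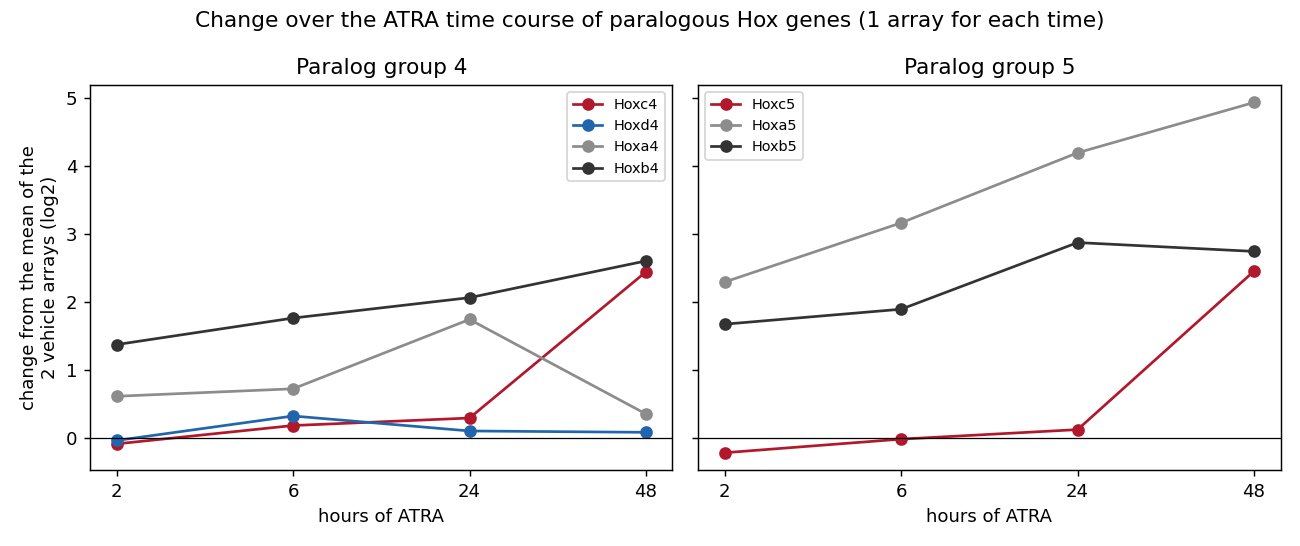
Log2 change from the mean of the 2 vehicle arrays along the ATRA time course for the paralogs of groups 4 and 5, with 1 array for each time and evenly spaced times. Hoxb4, Hoxa5 and Hoxb5 are above 1.3 from 2 h on; Hoxc4 and Hoxc5 stay below 0.3 to 24 h and reach 2.44 and 2.45 at 48 h.

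Of 10 measured genes beside or inside the clusters, none was called on the ATRA 48 h array in limma (1 had an unadjusted p under 0.05), and their median change there was -0.06. Of 19 measured cofactors and regulators of Hox genes, 7 were called higher and 1 lower on that array in limma, where 10.9% of all genes were called. Their median change there was 0.0. Of these, Meis1, a homeodomain partner of Hox proteins, was highest on the ATRA 48 h array, with 4.93 and 5.16 with vehicle, 5.91 at 24 h and 8.91 at 48 h of ATRA. Unlike Hoxc4, Meis1 was also high on BMS961 (7.51) and BMS753 (6.26) at 48 h. Cyp26a1, the enzyme that breaks down retinoic acid, changed by 5.10, 5.34, 6.02 and 7.06 along ATRA, and Rarb, the receptor gene with a known retinoic acid response element, by 2.46, 2.37, 3.27 and 4.14.

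Markers of the endoderm moved on the same array. Of 8 endoderm markers, 7 were called higher on the ATRA 48 h array in limma and their mean level was 8.91, against 6.68 and 5.97 on the vehicle arrays, 6.87 at ATRA 24 h and 6.02 to 8.15 over all other retinoid arrays. Plat, a protease made by parietal endoderm, went from 5.25 at 24 h to 9.55 at 48 h, and Lamb1, a basement membrane laminin, from 8.21 to 10.71. The exception was Thbd, at 4.59. The next highest mean of the 8, 8.15, was on BMS961 at 48 h, where 7 of them were lower than with ATRA, from 10.93 against 11.30 for Gata6 to 7.10 against 9.55 for Plat, and where Hoxc4 and Hoxc5 stood at 4.79 and 4.54. Of 8 embryonal carcinoma markers 4 were called lower on the ATRA 48 h array, with a mean of 11.05 against 11.88 and 11.45 with vehicle. Fibroblast markers gave 2 of 6 higher (Pdgfra and Pdgfrb), mesoderm 3 of 5 higher, and neural 1 higher and 1 lower of 6. On that array 10.9% of all genes were called. Pdgfra stood at 10.04 there and at 9.98 on BMS961 at 48 h, while Col1a1, Col1a2, Thy1 and Dcn were not called higher. The part of these shifts in cell type markers in the Hox values was not tested.

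Across the 18 arrays the 5 genes called at 48 h were correlated with each other, with Pearson's r from 0.74 to 0.93 over their 10 pairs (median 0.83). These values share the ATRA 48 h array, and without it r ran from 0.16 to 0.65 (median 0.26), so the likeness rests mostly on that array. Among 875 genes with a standard deviation of at least 0.5, those most like Hoxc5 were Igfbp5 (r = 0.945), Pyy (0.941), Krt18 (0.936), Slc25a21 (0.935) and Nr2f2 (0.933), and without the ATRA 48 h array their r fell to between 0.22 and 0.35. Those most like Hoxd8 were Dlk1 (0.931), Gas1 (0.92), Hoxb1 (0.914), Cpm (0.891) and Fabp3 (0.89), with r between 0.59 and 0.82 without that array. The microRNAs within the clusters, looked up after the other values were seen, gave 7.22 for Mir615 on the ATRA 48 h array, within its range of 6.98 to 7.81, with Mir196a-2 at 3.70 and Mir10b at 2.94, also within their ranges.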

How the data were processed

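Total RNA of F9 cells was labelled with biotin by a whole-transcript assay, per the labels' protocols. The deposited table holds log2 levels per probe set for 18 arrays, which the submitters' processing notes credit to RMA in Affymetrix Expression Console 1.1, and it was used unscaled. The sources used here do not give the genome build, detection calls or the sets in which arrays were normalized. Precision is limited by the number of arrays.

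Of 35556 probe sets, 21789 had 1 gene symbol in the platform annotation, 1621 had several and 12146 were not listed. A gene took its probe set with 1 symbol, and the one with the highest mean where it had several (999 genes), giving 19938 genes without a filter on dim ones.

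All 18 arrays entered 1 fit in limma 3.58.1 under R 4.3.3. Its 9 group means were vehicle and, for each retinoid, an early mean (2 and 6 h) and a late mean (24 and 48 h), and the steps between neighbouring times were shared by the retinoids. Residual degrees of freedom were 7, with a prior of 4.55. A gene was called at an adjusted p under 0.05 (Benjamini-Hochberg over all genes, per comparison). Tests of a single array gave it a term of its own (6 residual degrees of freedom, prior 4.91), or 1 term for each of 2 arrays (5 residual degrees of freedom), and were added after the values were seen. In data simulated for 19938 genes, changes of 2-, 4- and 8-fold on the ATRA 48 h array alone were called by its own test for 71.6%, 89.6% and 100% of genes, with 9 false calls, and by the late average for 0% at each size. Changes on both late arrays were called by the late average for 85.1%, 94% and 100%, with 16 false calls. The simulation changed 67, 67 and 66 genes at the 3 sizes, fewer than were called in the measured data, so its rates do not carry over to them. Promoters, 250 bases each, were read from RefSeq's table of GRCm38.p6, which held 5 of the 8 genes.

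The 8 genes, the gene lists and the rule for named genes were chosen with earlier results of these data known. That rule names the 8 genes always, the posterior Hoxc and Hoxd genes where called or at least 2-fold above both vehicle arrays, paralogs of a described gene with their values, and, for Hoxc5 and Hoxd8, the 5 most correlated genes. Of the cofactor, neighbour, paralog and marker lists, members named singly without a call were chosen after their values were seen. Tables and figures were made with Python 3.11.15, pandas 2.3.3, numpy 2.4.6 and matplotlib 3.10.9.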

Additional observations from a re-analysis of the deposited data

How the results depend on the processing

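The 5 calls on the ATRA 48 h array became 4 with arrays centred on their median, with vehicle replicate 1 and the ATRA arrays as a block, and without vehicle replicate 2 or any 1 of the late BMS753 and BMS641 arrays, and stayed 5 under the other alternatives against vehicle. Against the 48 h array of BMS961, BMS753 and BMS641 in place of vehicle the counts were 2, 4 and 3. Leaving out 1 array at a time, the count called late against vehicle ran from 0 to 4 (0 with all arrays), late against BMS641 from 0 to 5 (3), late minus early from 0 to 5 (1), any response from 0 to 2 (0), and the difference of late minus early between ATRA and a BMS compound from 0 to 8 (0); each highest value came without ATRA 24 h. Late against BMS641 was 1 after median centring and 0 with the block. Late minus early was 0 after median centring, with a trended robust prior and without common steps. For the fits that left out an array or changed the processing, the share of all genes called was not computed. At 1.5-fold above both vehicle arrays 4 genes passed in place of 2, and the share of all genes was not computed at 1.5-fold. Genes with no call changed sign: Hoxc6 late minus vehicle was 0.01 without ATRA 48 h (range -0.19 to 0.01), and late minus early was 0.027 after quantile normalization and ran from -0.119 to 0.081 leaving out arrays. Hoxd3 late minus early ran from -0.10 to 0.37. Hoxd4 late minus vehicle was -0.054 after centring and -0.049 with the block, and ran from -0.05 to 0.23 leaving out arrays; its late minus early ran from -0.30 to 0.20, and on the ATRA 48 h array it was -0.076 after centring and -0.058 with the block, with a range of -0.06 to 0.22. The cause of these shifts was not tested. A filter on genes above the median mean level removed all 8 genes and gave no values. Replicate numbers pair no samples here, since each retinoid and time has 1 array; arrays of the same time were related through the shared time steps of the fit. Every result on the ATRA 48 h array rests on 1 array, and all 8 genes were dim.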
